A study of Rattus norvegicus with 5 samples.

Results

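Nuclei of the ventral tegmental area (VTA) were taken as astrocytes when they passed a gate on 10 genes. A droplet barcode entered with at least 600 unique molecular identifiers (UMIs, each standing for 1 captured RNA molecule), more than 200 and fewer than 5000 genes, and less than 5% of its UMIs from mitochondrial genes. It was kept when at least 2 of the 5 astrocyte genes Slc1a2, Slc4a4, Aqp4, Gja1 and Ntsr2 were detected with at least 3 UMIs in all, Mog was below 10 per 10000 UMIs, Cx3cr1, Cldn5 and Pdgfra were at 0 and Nyap2 had no more than 1 UMI. This left 2508 of 35234 nuclei, and the 32726 other nuclei served for comparison. Because only part of these nuclei carried an astrocyte profile outside the gate (below), they are called gated nuclei. Members were chosen by the UMIs of these 10 genes, which are described here and left out of every count of tested or passing genes.

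The libraries were single-nucleus RNA-seq of VTA punches from 5 adult male Sprague-Dawley rats, with both hemispheres of a rat combined into 1 library. The sample labels give saline as the treatment of every rat, while a legend of the study calls the animals drug-naïve. There was thus 1 condition, and each comparison was made between nuclei of the same 5 rats.

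Astrocytes are glia that tile the brain around neurons, synapses and vessels. They clear glutamate and GABA through plasma membrane transporters, buffer potassium and water, store glycogen, supply cholesterol and lactate, and share small molecules through gap junctions. In the midbrain they also border the dendrites of dopamine neurons and take up and break down monoamines.

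Rats 1 to 5 gave 320, 1504, 226, 151 and 307 gated nuclei. These were 11.7%, 7.95%, 5.72%, 2.90% and 6.94% of each rat's nuclei, with a mean of 7.04% ± 3.22 (SD, n = 5). Rat 2 alone held more gated nuclei than the other rats together. Median depth was 1445, 2108, 1006.5, 4561 and 3043 UMIs per gated nucleus, against 1181, 927, 1126.5, 3350 and 2707 in the other nuclei, so rat 4 was the deepest and rat 3 the shallowest among gated nuclei. Of the other nuclei, 1817 of 2413, 12809 of 17423, 2999 of 3722, 1330 of 5053 and 1606 of 4115 fell in none of the 3 classes formed below. The median depths of these untyped nuclei were 1048, 749, 1100, 2311 and 1568 UMIs in rats 1 to 5. In rats 1 to 3 the comparison with all other nuclei was thus mostly with untyped nuclei. No gated barcode occurred in more than 1 library. The 5 marker genes alone selected 4069 nuclei, of which 662 were lost to Mog, 484 to Nyap2, 308 to Pdgfra, 216 to Cldn5 and 74 to Cx3cr1, with some lost to more than 1 gene.

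Over the 5 rats pooled, how far the gated nuclei looked like astrocytes in genes outside the gate differed with their number of marker UMIs. In the 708 nuclei with exactly 3 marker UMIs, Slc6a11, the GABA transporter GAT-3, stood at 0.504 per 10000 UMIs, and in the 1285 nuclei just outside, with 2 UMIs from 2 marker genes, it stood at 0.432. Slc1a3, the glutamate transporter GLAST, stood at 2.40 inside and 2.06 outside. Snap25, a synaptic protein gene of neurons, stood at 12.2 inside and 13 outside, and Th, the dopamine synthesis enzyme, at 5.55 and 5.76. The nuclei on both sides of the threshold were thus close in all 4 genes. From 3 marker UMIs to 4 or 5, 6 to 9, 10 to 19 and 20 or more, the Slc6a11 level went from 0.504 to 0.890, 2.15, 8.02 and 13.4 per 10000. Trpm3, a cation channel of many astrocytes, went from 1.86 to 23.1 over the same steps, while Snap25 went from 12.2 to 2.92. Depth rose along the same steps, from a median of 1137 to 4684 UMIs. The mix of rats changed too. Rats 4 and 5 gave 19 and 49 of the 708 nuclei at 3 marker UMIs, and 87 and 126 of 582 at 20 or more. Rat 3 gave 37 and 4. The parts of depth and of the mix of rats in the gradient were not tested.

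**Figure D1:**
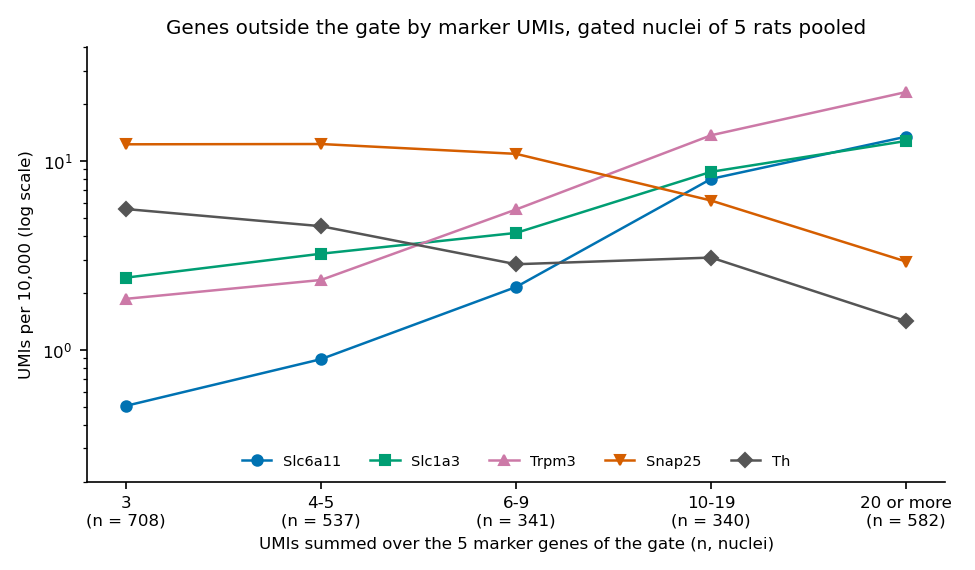
Mean level (UMIs per 10,000, log scale) of 5 genes outside the gate in gated nuclei of 5 rats pooled, by the UMIs summed over the 5 marker genes, with the number of nuclei under each step. Slc6a11, Slc1a3 and Trpm3 lay far higher at 20 or more marker UMIs than at 3, and Snap25 and Th lay lower.

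Of the gated nuclei, 1245 had 3 to 5 marker UMIs and 1263 had 6 or more. The latter are called well-marked nuclei, and the counts of genes that passed in each list are given for them as well. Free RNA in the droplets was sized from 7 transmitter genes of neurons, by their level in a group of nuclei as a percent of that in droplets with under 100 UMIs of the same library. Gated nuclei stood at 55.6%, 59.4%, 15.0%, 24.0% and 38.6% of that profile in rats 1 to 5. Nuclei with 3 to 5 marker UMIs stood at 87.0%, 88.9%, 19.3%, 71.4% and 76.5%, and well-marked nuclei at 34.4%, 41.4%, 12%, 14.6% and 28.6%. In every rat the well-marked nuclei were the lower of the pair.

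Rat 3 stood apart. Gja1, which encodes connexin 43, was at 30.9 per 10000 in its gated nuclei against 5.21 to 7.23 in those of the other rats, and at 28.3 against 0.847 to 1.77 in droplets under 100 UMIs. In 151 of its 226 gated nuclei at least 50% of the marker UMIs came from Gja1, compared with 47 of 320, 186 of 1504, 4 of 151 and 20 of 307 in rats 1, 2, 4 and 5. Sox9, an astrocyte transcription factor gene outside the gate, showed the same order, at 4.96 in rat 3 and 0.421 to 0.634 in the other rats, with 5.70 against 0.119 to 0.183 in droplets under 100 UMIs. Slc6a11 was lowest there, at 1.66 per 10000.

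The genes that made up the gate had these values. Slc4a4, the sodium bicarbonate cotransporter, was at 23.3, 21.1, 15.8, 44.4 and 35.5 per 10000 in gated nuclei of rats 1 to 5 and at 0.821 to 1.83 in the other nuclei. Slc1a2, the glutamate transporter GLT-1, was at 5.22, 3.98, 2.97, 6.89 and 5.83, against 0.133 to 0.418. Aqp4, the water channel of astrocyte endfeet, was at 5.47, 10.3, 5.15, 5.42 and 8.41, against 0.2 to 1.95. Ntsr2, a neurotensin receptor gene, was at 1.04, 0.527, 0.457, 0.477 and 0.543, against 0.00736 to 0.288.

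Against all other nuclei, 13322 genes outside the gate were tested on UMIs summed per rat, with rat as a block (edgeR quasi-likelihood test). The Benjamini-Hochberg adjustment ran over these and those genes of the gate that passed the filter on low counts. Of the 13322 genes, 1620 (12.2%) were higher in gated nuclei and 2079 (15.6%) were lower at adjusted p under 0.05, and the median log2 fold change over all tested genes was -0.06. The lower count was 1225 without rat 5, and after subtraction of free RNA 789 were higher and 678 lower of 10147 tested. In a list of general astrocyte markers that the gate did not use, 24 of 29 tested genes were higher and 1, Wdr17, was lower, with a median log2 fold change of 2.75. In well-marked nuclei 26 were higher and 1 lower, where 15.6% of 12913 tested genes were higher and 18.3% lower. Of the 24 higher genes, 17 were also above the level of droplets under 100 UMIs in each of the 5 rats. The other 7 (Sox9, Mlc1, Cldn10, Atp1b2, Gfap, Aldoc and S100b) were at or below that level in at least 1 rat.

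For uptake and breakdown of GABA and glycine, 9 of 10 tested genes were higher and none was lower. Slc6a11 was at 8.29, 5.11, 1.66, 14 and 10.4 per 10000 in gated nuclei of rats 1 to 5 and at 0.459, 0.389, 0.118, 0.269 and 0.304 in the other nuclei. The groups did not overlap, and the log2 fold change was 4.52 (SE 0.31). Slc6a11 was outside the gate but was known beforehand as a marker of this part, so these values are a description. It is also counted among the 9 genes here and among the 24 general astrocyte markers above. Gabrb1, a GABA-A receptor subunit, was at 15.5, 11.9, 11.3, 23.7 and 20.6 against 2.98, 4.03, 5.26, 5.47 and 5.76 per 10000, with a log2 fold change of 1.77 (SE 0.20). Gabrg1, another subunit, and Maob, the monoamine oxidase of astrocytes, had log2 fold changes of 2.42 and 2.57. Abat, the GABA transaminase, had 1.39. Slc6a9, the glycine transporter GlyT1, was higher by 0.78 on the log2 scale, but its level in gated nuclei did not exceed that of droplets under 100 UMIs in every rat, and it did not pass after free RNA was subtracted.

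Of the 8 tested genes of glutamate uptake and glutamine, 4 were higher and 1 was lower. Slc1a3 was at 9.01, 6.65, 7.05, 10.3 and 9.79 per 10000 in gated nuclei and at 2.69, 2.03, 1.10, 1.77 and 1.80 in the other nuclei, with no overlap and a log2 fold change of 2.18 (SE 0.17). Slc7a11, the cystine-glutamate exchanger, Slc38a3, a glutamine transporter, and Glud1, glutamate dehydrogenase, were higher by 2.83, 2.72 and 1.90. Glul, glutamine synthetase and a common astrocyte marker, was at 3.73, 1.94, 1.44, 1.99 and 2.09 per 10000 in gated nuclei and 3.5, 1.73, 0.990, 1.61 and 1.37 in the others. Its level was slightly higher in each rat, yet the difference did not pass (log2 fold change 0.30, edgeR adjusted p = 0.0953).

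In the list for potassium, water and ion balance, 11 of 15 tested genes were higher and 2 were lower. Trpm3 was at 14.5, 9.53, 5.90, 25.4 and 16.7 per 10000 in gated nuclei against 1.60, 1.63, 1.54, 1.79 and 2.19 in the others, with a log2 fold change of 2.87. Mlc1, a membrane protein of astrocyte endfeet, and Atp1b2, a sodium pump subunit, were higher by 2.75 and 2.66. Kcnj10, the potassium channel Kir4.1, was higher by only 0.73. Slc12a2, the chloride cotransporter NKCC1, and Car2, a carbonic anhydrase, were lower (log2 fold changes -1.15 and -0.88). By the classes formed below, both were lower than in oligodendrocytes but higher than in neurons. Car2 was higher than in OPCs (oligodendrocyte precursor cells) too. Among 5 gap junction partner genes tested, Gjb6 (connexin 30), Gjb2 (connexin 26) and Cdh2 were higher, with 3.06 and 2.56 for the connexins, and none was lower.

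Of 22 tested metabotropic receptor and calcium release genes, 10 were higher and 4 were lower, where 12.2% and 15.6% of all tested genes were. Ednrb, the endothelin B receptor, was higher by 3.26 on the log2 scale (SE 0.27), Plcb1, a phospholipase C, by 2.07, P2ry1, an ATP and ADP receptor, by 1.99, Itpr2, the calcium release channel of astrocytes, by 1.34 and Adra1a, an adrenoceptor, by 1.26. Grm3, a glutamate receptor, was at 7.35, 6.85, 6.39, 8.90 and 6.64 per 10000 in gated nuclei against 26.9, 13.1, 7.66, 38.4 and 23.6 in the other nuclei. It was lower in all 5 rats, with a log2 fold change of -1.45 (SE 0.22, edgeR adjusted p = 0.000325). Grm5, Lpar1 and Drd2 were lower too (-0.75, -1.13 and -1.13), and Grm5 did not pass without rat 5. With free RNA subtracted, Adra1a, Grm5 and Drd2 no longer passed. By the classes formed below, Lpar1 was lower than in oligodendrocytes but higher than in neurons. Grm5 and Drd2 went the other way in both.

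**Figure D2:**
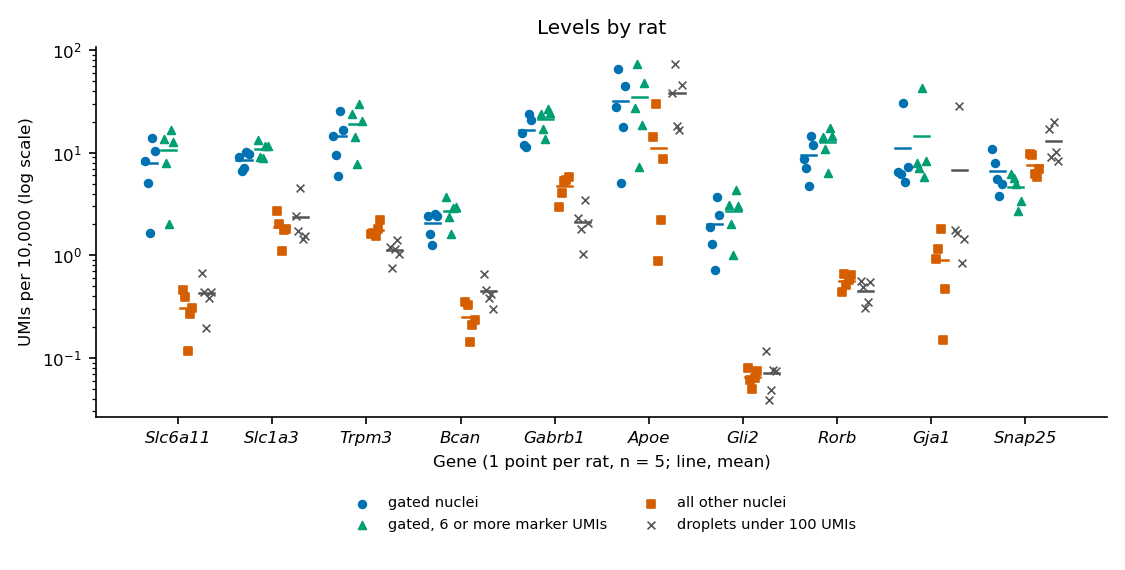
Level (UMIs per 10,000, log scale) of 10 genes in gated nuclei, in gated nuclei with 6 or more marker UMIs, in all other nuclei and in droplets under 100 UMIs, with 1 point per rat and a line at the mean. Gated nuclei lay above other nuclei in all 5 rats for the 8 genes from Slc6a11 to Rorb, and Gja1 of rat 3 lay far above the other rats in gated nuclei and in nearly empty droplets.

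Genes of lipid and glucose handling were mostly higher. In the list for cholesterol and lipid transport, 12 of 20 were higher and 3 were lower. Apoe, the main lipid carrier protein of the brain, was at 27.7, 65.1, 5.02, 17.8 and 45 per 10000 in gated nuclei and at 14.3, 29.8, 0.880, 2.22 and 8.70 in the others, with a log2 fold change of 1.95 (SE 0.29). In droplets under 100 UMIs it was at 38.6, 73.6, 18, 16.7 and 45.8, which is at or above the gated level in 4 of 5 rats. Acsbg1, an acyl-CoA synthetase, was higher by 3.46, Ppara, a lipid-sensing nuclear receptor, by 3.09 and Fads2, a fatty acid desaturase, by 2.68, and all 3 were above the level of nearly empty droplets in each rat. Abcg1, a cholesterol exporter, was lower (-1.41). For glucose, lactate and glycogen, 11 of 14 genes were higher and 1, the glycogen branching enzyme Gbe1, was lower (-0.66). Pygm, a glycogen phosphorylase, was at 0.456, 0.420, 0.489, 1.11 and 0.652 per 10000 against 0.0956, 0.103, 0.0239, 0.0219 and 0.0469, a log2 fold change of 3.38 (SE 0.46). Pygb, the brain form, Aldoc, an aldolase, and Ldhb, a lactate dehydrogenase subunit, were higher by 1.56, 1.15 and 0.67, and Ldhb did not pass in well-marked nuclei.

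Among 20 tested genes of secreted and surface proteins that act on synapses, 11 were higher and 3 were lower. Bcan, the matrix protein brevican, was at 2.43, 1.62, 1.27, 2.51 and 2.39 per 10000 in gated nuclei and 0.349, 0.330, 0.142, 0.210 and 0.233 in the others (log2 fold change 3.0, SE 0.19). Gpc4, a glypican that promotes synapse formation, was higher by 2.84, the matrix protein Tnc by 2.36, Mertk, a receptor for engulfment of debris and synapses, by 2.30 and Sparcl1 (hevin) by 2.13. Vcan (versican) and Gpc6, a second synapse-promoting glypican, were lower (-1.33 and -0.74).

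Transcription factor genes known from astrocytes had 16 higher members of 20 tested and 1 lower, Etv5. Gli2, a Hedgehog pathway factor, was at 1.89, 1.3, 0.718, 3.66 and 2.45 per 10000 in gated nuclei and at 0.0497 to 0.0794 in the others. The lowest gated value was far above the highest of the others, and the log2 fold change was 4.84 (SE 0.26, edgeR adjusted p = 4.07e-07). Rorb, a nuclear receptor, was at 8.70, 7.05, 4.73, 14.6 and 12 against 0.443 to 0.652 (log2 fold change 3.95). Rfx4, Gli3, Sox9 and Id3 were higher by 3.85, 3.12, 2.91 and 2.51. Etv5 (-0.60) did not pass in well-marked nuclei, nor when rat 2, rat 3, rat 4 or rat 5 was left out. Of 30 homeobox and related genes that mark brain regions, 16 passed the filter on low counts. Nkx6-1, Pou3f2, Irx5, Irx1 and Meis1 were higher, with log2 fold changes from 0.63 for Meis1 to 1.90 for Nkx6-1, and Lmx1b, Lmx1a and Nkx6-2 were lower. Lmx1a and Lmx1b, factors of dopamine and related neurons, had -1.28 and -1.44. Irx1 did not pass without rat 1, without rat 2 or without rat 5, and Lmx1b did not pass without rat 5.

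In the list for FGF, BMP, Notch, Hedgehog and Wnt signalling, 15 of 23 tested genes were higher and 5 were lower. The receptors led: Bmpr1b was at 0.590, 0.623, 0.685, 1.28 and 1.01 per 10000 against 0.0237 to 0.0465 (log2 fold change 4.39, SE 0.28), and Fgfr3 at 0.617, 0.324, 0.228, 0.997 and 0.897 against 0.00920 to 0.05 (4.38, SE 0.31). Smo and Ptch1, the transducer and the receptor of Hedgehog signals, were higher by 2.55 and 1.91, and Notch1 by 2.43. Hhip, a Hedgehog inhibitor, was lower (-1.32). Thyroid hormone, retinoid, steroid and angiotensinogen genes had 8 higher and 1 lower of 11 tested. Cyp7b1, an oxysterol hydroxylase, was higher by 3.70 (SE 0.18), Agt, the angiotensin precursor, by 2.60 and Rarb, a retinoic acid receptor, by 2.25.

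Of 28 genes linked to reactive astrocytes, 10 passed the filter, and 5 were higher (Fbln5, Gfap, Cd44, Il33 and Stat3), with none lower. Gfap, the intermediate filament of astrocytes, was at 2.33, 7.45, 5.77, 2.20 and 5.21 per 10000 in gated nuclei and at 0.927, 2.74, 0.654, 0.0925 and 0.612 in the others (log2 fold change 2.62, SE 0.39). In droplets under 100 UMIs it was at 2.40, 5.70, 13.7, 0.717 and 2.54, above the gated level in rats 1 and 3. Cd44 did not pass without rat 2 or without rat 5. Of 11 tested genes of monoamine handling 4 were higher (Maob, Aldh2, Aldh7a1 and Aldh1a1) and 2 lower, among them Qdpr, beside the same shares of all genes. Maob passed in every setting tried.

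In well-marked nuclei, where 15.6% of all tested genes were higher and 18.3% lower, some of these lists had other counts. Receptor and calcium release genes had 9 higher and 7 lower, glutamate genes 4 and 2, GABA and glycine genes 9 and 1, gap junction partners 4 and 1, synapse-directed genes 12 and 3, transcription factors 17 and 0, brain region genes 6 and 3, monoamine genes 3 and 1, and thyroid, retinoid, steroid and angiotensinogen genes 9 and 1. The lists for ion balance, lipids, glucose, growth factor signalling and reactive astrocytes had the same counts in both. The shares of lower genes in the lists for synapse-directed and brain region genes, 3 of 20 and 3 of 16, were near that of all genes.

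Over all lists, 135 genes were higher in gated nuclei, and 46 of them were not above the level of droplets under 100 UMIs in each of the 5 rats. In the glucose list these were 6 of 11, Pygb, Aldoc and Ldhb among them, and in the brain region list 4 of 5, Nkx6-1, Pou3f2, Irx5 and Irx1. In the receptor list Ednrb and P2ry1 were among 4 of 10, in the list for monoamines Aldh2, Aldh7a1 and Aldh1a1 were 3 of 4, and in the list for ion balance Mlc1 and Atp1b2 were among 4 of 11. Gjb2, Sparcl1, Sox9, Agt, Gfap and Cd44 were also among the 46. In the glutamate list all 4 higher genes were above that level in each rat, and in the growth factor list 13 of 15 were.

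Marker genes of other cell types were still present in gated nuclei. The gate had set nuclei with Mog, Nyap2, Pdgfra, Cldn5 or Cx3cr1 above its limits among the other nuclei. Lower markers of those cell types thus follow in part from the gate and do not test it. Of 12 oligodendrocyte markers 11 were lower and none was higher, and of 9 OPC (oligodendrocyte precursor cell) markers tested 7 were lower. Of 13 neuron markers 6 were lower and none was higher, and in well-marked nuclei 11 were lower. Well-marked nuclei had 12 lower oligodendrocyte markers and 7 lower OPC markers. The neuron markers summed to 24.6 to 46.2 per 10000 in gated nuclei, 14.3 to 27.1 in well-marked nuclei, 41.6 to 57.8 in other nuclei and 42.2 to 71.0 in droplets under 100 UMIs. None of the 14 neuron markers measured was at 0 in gated nuclei. Dopamine neuron markers had 2 lower of 8, and 6 in well-marked nuclei. Of 11 microglia markers 1 was lower, Inpp5d (4 in well-marked nuclei), which is no larger a share than the 15.6% of all genes. Of 8 vascular markers tested 1 was lower, Ebf1 (5 in well-marked nuclei), and 1 higher, near the shares of all genes. The higher 1 was Pdgfrb (log2 fold change 2.69, SE 0.29), a receptor best known from pericytes. Among 3 ependymal or tanycyte genes tested, Dnah12, a dynein chain of cilia, was at 0.277, 1.3, 0.913, 0.997 and 1.24 per 10000 against 0.05 to 0.114 (log2 fold change 3.44, SE 0.21), Rarres2 was higher, though not above droplets under 100 UMIs in each rat, and Spag16 was lower. These counts were the same in well-marked nuclei.

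**Figure D3:**
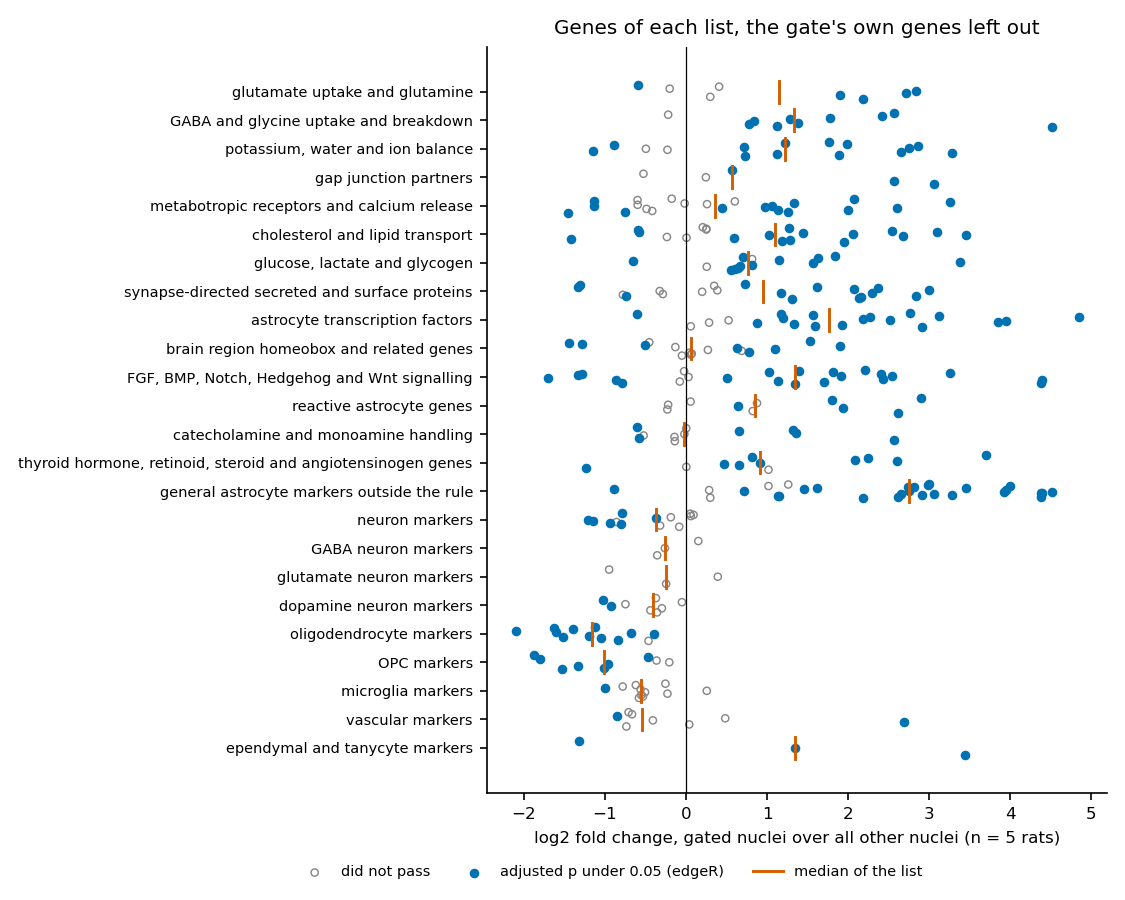
log2 fold change of each tested gene in gated nuclei over all other nuclei (n = 5 rats), by gene list, with the genes of the gate left out. Filled points passed at an edgeR adjusted p under 0.05, open points did not, and the bars mark the median of each list. The general astrocyte markers had a median of 2.75. The medians of the oligodendrocyte and OPC markers, of cell types that the gate left out, lay left of 0.

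Apart from the lists, genes among the 10 largest increases were Aqp9, an aquaglyceroporin, Nwd1, Gucy1b2, a guanylate cyclase subunit, Cd38, an NAD-consuming enzyme, and Slc39a12, a zinc transporter. Aqp9 was at 0.912, 0.867, 1.60, 1.60 and 1.41 per 10000 in gated nuclei and at 0.00894 to 0.0460 in the others, with a log2 fold change of 5.27 (SE 0.38, edgeR adjusted p = 1.52e-06). The others had 5.24, 5.14, 5.13 and 5.05. Among the 10 largest decreases, Slc26a7, an anion exchanger, was at 0.0268, 0.0187, 0.0652, 0 and 0.00906 per 10000 against 0.165, 0.113, 0.193, 0.150 and 0.139, with a log2 fold change of -2.87. Rnf125, a ubiquitin ligase, Npsr1, the neuropeptide S receptor, and Itga9, an integrin, had -2.86, -2.62 and -2.58.

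The gated nuclei were then set against 3 classes formed from the same 10 genes: 694 nuclei with Pdgfra (OPCs), 8592 with Mog (oligodendrocytes) and 2879 with Nyap2 (neurons). Their pooled median depths were 3668, 2790 and 8020 UMIs, against 2069.5 in gated nuclei. Of 10875 genes tested, 2216 (20.4%) were higher and 1965 (18.1%) lower than in OPCs, 3514 (32.3%) higher and 2915 (26.8%) lower than in oligodendrocytes, and 3157 (29%) higher and 3203 (29.5%) lower than in neurons. These 3 comparisons share the gated nuclei and come from 1 fit with a common estimate of the spread. Their shares of called genes are therefore not set beside those against all other nuclei, which had a fit of its own. After subtraction of free RNA, with 8754 genes tested, the counts were 1105 and 987 against OPCs, 3000 and 2064 against oligodendrocytes and 1463 and 1468 against neurons. General astrocyte markers were higher for 23 of 28 tested genes against OPCs, 24 against oligodendrocytes and 26 against neurons, and in well-marked nuclei for 24, 24 and 26. In well-marked nuclei 15.9% of all genes were higher and 17.2% lower than in OPCs, 27.4% and 25.3% than in oligodendrocytes, and 27.9% and 28.9% than in neurons. Slc6a11 was at 0.258 to 0.600 per 10000 in OPCs, 0.0845 to 0.163 in oligodendrocytes and 0.0531 to 0.609 in neurons, with log2 fold changes of 4.23, 5.83 and 4.30.

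Against OPCs, 7 genes for synapse-directed proteins were lower and 5 higher of 18 tested, and 6 astrocyte transcription factors were lower and 7 higher of 18. In well-marked nuclei these counts were 8 and 6, and 4 and 8. Ptprz1, a receptor phosphatase often listed as an astrocyte gene, was at 10.2, 10.2, 9.10, 16.0 and 14.1 per 10000 in gated nuclei and at 38.3, 33.2, 18.4, 35.1 and 35.2 in OPCs, a log2 fold change of -1.49 (SE 0.28). Sox6 and Etv5 were lower than in OPCs as well (-1.62 and -2.15), as were Gpc6 (-1.68) and Vcan (-4.87). With free RNA subtracted, Ptprz1, Sox6 and Gpc6 did not pass. Among the 10 largest differences towards OPCs were Susd5 (-6.31), Itga9 (-6.29), Col5a3 (-5.79), Megf11 (-5.54) and Calcrl (-5.50). Towards the gated nuclei, Bbox1, the last enzyme of carnitine synthesis, had 182 UMIs in gated nuclei and 0 in OPCs, at least 22.9-fold higher, and Gli1, a Hedgehog target, had 133 and 0, at least 16.7-fold higher (against a floor of 3 counts over the OPCs). Pdlim3, Ptk2b, Aqp9, Aldh1l1 and Phkg1, also among the 10 largest, had log2 fold changes from 4.69 to 5.23. Pax7 was higher than in OPCs (3.54), though lower than in neurons. Pax3 was lower than in OPCs (-1.64), and it did not pass without rat 1, without rat 3 or without rat 5. Markers of other cell types differed from OPCs as well. Of 13 neuron markers 7 were higher and 1 lower, and of 12 oligodendrocyte markers 6 were higher and 0 lower. In well-marked nuclei these counts were 1 and 2, and 2 and 1.

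Against oligodendrocytes, the 28 general astrocyte markers had a median log2 fold change of 3.08, and 2 of them, Hepacam and Glul, were lower. Glul was at 4.18, 2.15, 3.16, 2.70 and 2.58 per 10000 in oligodendrocytes, above the gated nuclei in all 5 rats (log2 fold change -0.64, SE 0.18, edgeR adjusted p = 0.00407). Kcnj10 and Hepacam were lower than in oligodendrocytes by the main test (-0.63 and -0.70), but neither passed in well-marked nuclei, and Glul, Kcnj10 and Hepacam did not pass after subtraction of free RNA. Grm3 was at 26.5 to 71.9 per 10000 in oligodendrocytes (log2 fold change -3.0, SE 0.28). Higher in gated nuclei were Eya1 (6.17), Prrx1 (5.72), Glis3 (5.55) and Slc39a12 (5.49), and lower were Sec14l5 (-3.78), Atp10b (-3.72), Insc (-3.69) and St18 (-3.65).

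Against neurons, Glul and Kcnj10 were higher in gated nuclei by 2.41 and 3.69, and Grm3 was higher too. The glycine receptor gene Glra1 (-1.35) and Lmx1a (-2.72) were lower. Of 20 tested lipid genes 17 were higher than in neurons and none was lower (16 and 1 in well-marked nuclei), and of 18 transcription factors 17 were higher. Atp13a4, a P-type ATPase, was at 2.01, 1.32, 1.27, 3.59 and 2.85 per 10000 against 0.0130 to 0.0870 in neurons (log2 fold change 6.35, SE 0.38). Cd38, Eva1a, Prrx1, Nat8f5, Etnppl and Fgfr3, also among the 10 largest, had 6.32 to 5.78. Slc26a7 (-4.25) and Npsr1 (-4.08) were lower. Of the markers of these classes themselves, 12 of 12 oligodendrocyte markers were higher in gated nuclei than in neurons and 12 of 13 neuron markers were higher than in oligodendrocytes. In well-marked nuclei these counts were 11 and 7. By the 7 transmitter genes, oligodendrocytes stood at 20.2%, 31.9%, 9.90%, 13.5% and 19.6% of the free RNA profile in rats 1 to 5. Gated nuclei, and well-marked nuclei too, stood higher in every rat. The part of free RNA in these marker counts was not tested. Against neurons, 10 of 13 neuron markers were lower and 2, Nefm and Nefl, were higher, with the same counts in well-marked nuclei. Of 3 GABA neuron markers Gad1 was lower and Slc32a1 higher, and in well-marked nuclei 0 were higher and 2 lower.

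**Figure D4:**
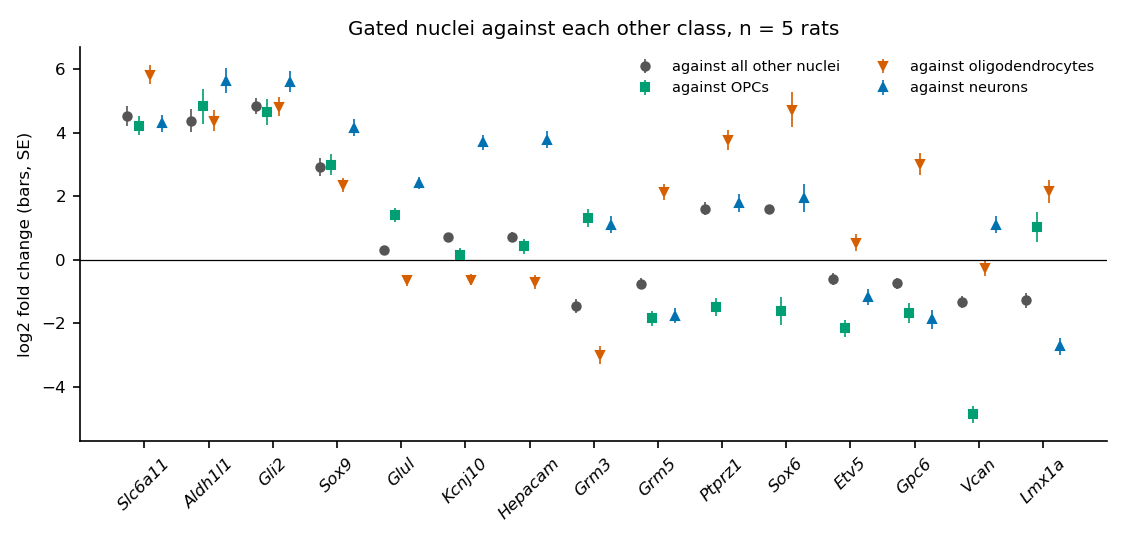
log2 fold change (bars, SE) of 15 genes in gated nuclei against all other nuclei, OPCs, oligodendrocytes and neurons, n = 5 rats. Slc6a11, Aldh1l1, Gli2 and Sox9 were above 0 in all 4 comparisons, whereas Glul, Kcnj10, Hepacam and Grm3 were below 0 against oligodendrocytes and above 0 against neurons.

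To see how gated nuclei varied among themselves, those with at least 1 Gfap UMI were set against those with none. Gfap was detected in 28.4%, 58.4%, 36.7%, 29.8% and 47.9% of gated nuclei in rats 1 to 5, 1245 of 2508 in all. In oligodendrocytes, which should lack it, Gfap was detected in 19.9%, 37.4%, 8.22%, 3.04% and 12.2%, at median depths of 4068.5, 2614, 942, 3175 and 2658.5 UMIs. The share was higher in gated nuclei of every rat, and rats 1 and 2 had the highest shares in oligodendrocytes. After each of 1919 nuclei was thinned to 1000 UMIs, with 589 shallower nuclei left out, the share was 19.6%, 37.4%, 28.1%, 15.2% and 25.8%. Slc6a11 was detected in 27.2%, 33.0%, 17.7%, 73.5% and 61.9% of gated nuclei, and in 1.10% to 5.56% of oligodendrocytes. Both genes were detected in 499 gated nuclei, Gfap alone in 746, Slc6a11 alone in 426 and neither in 837. In thinned nuclei Slc6a11 was found in 32.4% ± 26.1 (SD, n = 5) of those with Gfap and 32.8% ± 15.8 of those without.

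Of 7822 genes tested between nuclei with and without Gfap, 51 (0.652%) were higher and 54 (0.69%) lower (edgeR, rat as a block). Gfap and the gate's genes were left out of these counts, though not of the p-value adjustment. Nuclei with Gfap were deeper in all 5 rats, with medians of 2409, 2554, 1082, 4951 and 3485 UMIs against 1314, 1513, 981, 4469 and 2586.5 without. With UMI totals matched between the groups, 46 genes were higher and 83 lower, 32 and 48 of them shared with the first counts. With every nucleus thinned to 1000 UMIs, which left 2276 genes to test, 9 were higher and 24 lower, 5 and 10 of them shared. General astrocyte markers summed to 153.7, 125.1, 78.3, 173.6 and 170.7 per 10000 with Gfap and to 124.8, 110.4, 71.4, 173.9 and 148.6 without, higher with Gfap in 4 of 5 rats. Of 26 tested, 4 were higher (Aldh1l1, Mlc1, Pla2g7 and Atp1b2, with log2 fold changes of 0.85, 0.70, 0.68 and 0.55) and none was lower. In well-marked nuclei none of these 4 passed, and 1 other marker, S100b, was higher (0.44). Ependymal and tanycyte markers summed to 0.705, 1.95, 1.36, 1.68 and 1.88 with Gfap and to 0.246, 0.787, 1.02, 1.09 and 1.09 without, higher in 5 of 5 rats, with Dnah12 the only 1 of them tested. The means of this sum were 1.51 and 0.847, and those of Dnah12 alone were 1.28 and 0.616. The difference in the sum thus came almost wholly from Dnah12 and was not one of the list as a set. Oligodendrocyte markers summed to 91.8, 130.7, 69.1, 62.4 and 72.1 with Gfap and to 119.4, 127.6, 53.3, 35.2 and 58.1 without, higher in 4 of 5 rats. The part of these markers in the differences below was not tested. Tnc, the matrix protein tenascin C, was at 0.256, 0.947, 1.18, 0.981 and 1.10 per 10000 with Gfap and 0.123, 0.207, 0.459, 0.321 and 0.338 without. It was higher in each rat, with a log2 fold change of 1.80 (SE 0.21, edgeR adjusted p = 1.28e-05). Id3, a BMP target, was at 0.299, 0.806, 0.544, 0.573 and 0.997 against 0.0461, 0.269, 0.153, 0.128 and 0.418 (1.67, SE 0.22). Reln, the secreted protein reelin, was at 2.05, 1.77, 1.27, 2.25 and 1.98 against 0.677, 0.649, 0.561, 0.834 and 0.935 (1.41, SE 0.15). Dnah12, Pgm5, Ror1, Adamts9, Sel1l3 and Fam20a had 1.25 to 0.88, and Apoe was higher by 0.63. Of the named genes, Tnc, Id3, Reln, Dnah12, Pgm5 and Apoe also passed in well-marked nuclei.

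Among the genes lower in nuclei with Gfap, Grik1, a kainate receptor subunit, was at 0.384, 0.919, 0.0906, 0.164 and 0.482 per 10000 with Gfap and 1.31, 1.06, 0.561, 5.45 and 1.47 without (log2 fold change -1.49, SE 0.32). Rat 4 was far above the other rats in nuclei without Gfap, and Grik1 passed in well-marked nuclei too (-1.95). Ptprr, Arpp21, Unc5d, Trpc5 and Gpr176 had -1.35 to -1.16, and Grm5 and Gpc6 had -0.88 and -0.66. In well-marked nuclei Ptprr, Arpp21, Grm5 and Gpc6 did not pass, and Unc5d, Trpc5 and Gpr176 were under the filter on low counts. Neuron markers summed to 45.4, 38.7, 27.4, 17.8 and 19.3 per 10000 with Gfap and to 46.7, 46.7, 29.4, 28.2 and 32.6 without, lower with Gfap in 5 of 5 rats, and the part of neuronal RNA in these differences was not tested. None of the 11 neuron markers tested passed singly, where 0.652% of all genes were higher and 0.69% lower. Of 8 OPC markers tested 1 was lower, Tnr (-1.36), in 4 of 5 rats, and it did not pass in well-marked nuclei. Slc6a11 did not pass (log2 fold change 0.03, SE 0.13, higher with Gfap in 2 of 5 rats). Of the 9 GABA and glycine genes tested, Slc6a11 among them, none passed. With 0.652% of all genes higher and 0.69% lower, such a count does not set this list or the neuron markers apart from other genes.

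The number of genes that passed rested on the rats used. Without rat 5, 6 were higher and 0 lower by edgeR, where 203 were lower at an unadjusted p under 0.05. Without rat 2, 15 were higher, and without rat 3, 18 were higher and 21 lower. After subtraction of free RNA 1 was higher (Reln) and 0 were lower by edgeR, where 192 were lower at an unadjusted p under 0.05. In well-marked nuclei, with 6226 genes tested, the counts were 30 (0.482%) and 11 (0.177%). Of these, 14 and 6 were shared with the first counts of 51 and 54. DESeq2 on all gated nuclei gave 22 and 32, all of them shared.

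**Figure D5:**
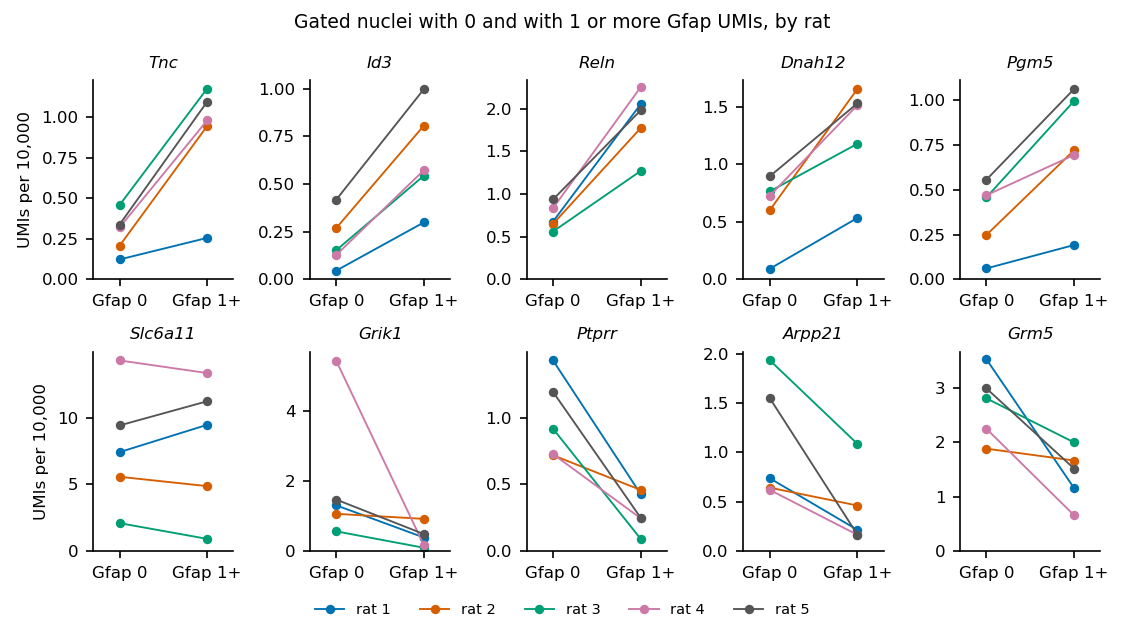
Level (UMIs per 10,000) of 10 genes in gated nuclei with 0 and with 1 or more Gfap UMIs, with 1 line per rat. Tnc, Id3, Reln, Dnah12 and Pgm5 were higher with Gfap and Grik1, Ptprr, Arpp21 and Grm5 lower in all 5 rats, while Slc6a11 was higher in 2 rats and lower in 3.

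Glp1r, the GLP-1 receptor gene that the study is about, was detected in 4 of 2508 gated nuclei, 0.159% (exact Clopper-Pearson 95% interval 0.0435% to 0.408%, counting error only), with 5 UMIs in all. Oligodendrocytes had it in 6 of 8592 nuclei (0.0698%), OPCs in 0 of 694 and neurons in 39 of 2879 (1.35%). Neurons were deeper, with a pooled median of 8020 UMIs against 2069.5 in gated nuclei, so these shares are not at like depth. Per 10000 UMIs, Glp1r was at 0.0289 in neurons and 0.00220 in oligodendrocytes. The level in gated nuclei, 0.00664 per 10000, was below the 0.0183 of droplets under 100 UMIs, so expression above background was not detectable at this depth.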

How the data were processed

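Libraries were made with the 10x Genomics dual index 3′ assay v3.1 from nuclei of frozen tissue. The authors deposited 1 matrix of raw UMI counts per rat, not filtered for cells, with 827032 to 2042313 barcodes. The matrix headers name Cell Ranger 4, whereas the submitters' processing notes list Cell Ranger 8.0.1. The genome build was not given in the sources used here. Gene symbols were those paired with Ensembl IDs in the files (32883 genes, of which 195 names were repeated, each taken at its first ID). With 3′ tags, levels were not ranked between genes. Members and gene lists were chosen with earlier results of these data known.

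Levels are UMIs per 10000 UMIs of the group. Counts were summed per rat and class, genes were filtered with filterByExpr, and groups were compared by edgeR 4.0.16 (R 4.3.3) with TMM normalization, a quasi-likelihood test and rat as a block. Groups of 1 rat share an animal, and their deviations from the group means correlated at 0.370 to 0.793 over 25 pairs. Each rat was 1 sample. With rat as a block, p-values measure how far the differences within a rat vary over the 5 rats. Free RNA was sized from barcodes under 100 UMIs. Named genes were those of each list with the most UMIs in gated nuclei or the largest fold change past the threshold, and for each comparison up to 10 per direction with the largest fold change, changed the same way in 5 of 5 rats and with at least 20 UMIs. Some of these, with no gene symbol or of unclear function, were counted but not named, and a few others are not reported here. Scrublet (scanpy 1.11.5) marked 3 nuclei and was taken not to have worked, so the top 5% of its scores were left out as an alternative. DESeq2 1.42.0 was another. The other alternatives changed the size factors, the filter on low counts, the block, the minimum depth (1000 or 2000 UMIs), the marker UMIs, free RNA, the matching or thinning of depth and the rats used. On simulated counts the comparison with all other nuclei recovered 69.1% of log2 changes of 1 and 99.0% of 2 (13146 genes). Of its 174 calls, 10 (5.75%) were false. The simulation gave all genes the same spread and the rats no differences of their own, so these rates need not hold for the data.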

Additional observations from a re-analysis of the deposited data

Results flagged for a closer look

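In 94 values that were given per rat (89 of them levels of a gene outside the gate in gated nuclei), 8 had 1 rat whose distance from the nearest other rat was over 0.71 of the whole range of the 5, where chance alone gives about 1 in 20. Of these, 7 were in rat 3 and 1 in rat 1. Rat 3 was high in Sox9 (4.96 per 10000, others 0.421 to 0.634) and Gjb2 (0.261, others 0.0816 to 0.127). It was low in Slc6a9 (0.587, others 1.89 to 2.06), Slc38a3 (0.196, others 0.732 to 0.884), Mlc1 (0.424, others 1.74 to 2.01), Pygb (0.718, others 1.87 to 2.26) and Gbe1 (0.424, others 0.688 to 0.761). Rat 1 was high in Glul (3.73, others 1.44 to 2.09). Rat 3 also had the lowest median depth of gated nuclei, and its part in these values was not tested.

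Outside the nuclei used, 3310 barcodes met the marker rule but had 5% or more mitochondrial UMIs, 1143 of them in rat 1 and 1891 in rat 2. In these 2 rats that was more than the 320 and 1504 nuclei kept. The gated nuclei of rats 1 to 5 had median mitochondrial shares of 4.16%, 3.22%, 0.770%, 0.336% and 1.77%. A further 35 met it with 5000 or more genes. Neither set was analysed further.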

How the results depend on the processing

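The limits of these results include the low depth of rat 3, the gate's threshold of 3 marker UMIs and free RNA. They also include the barcodes lost to the mitochondrial limit in rats 1 and 2, and the counts that fell without rat 5. The 14 alternatives that kept all rats, or left out rats 1 and 2, changed the counts by over 1.5 times in these cases, and the cause was not tested. Without the replicate block (the pairing by rat), 782 genes were higher and 506 lower against all other nuclei, 770 and 918 against OPCs, 2262 and 1463 against oligodendrocytes, 1398 and 1560 against neurons, and 0 and 0 between nuclei with and without Gfap (edgeR, 44 and 60 at an unadjusted p under 0.05). With free RNA subtracted the counts were 789 and 678, 1105 and 987 (OPCs), 1463 and 1468 (neurons) and 1 and 0 (Gfap). With no filter on low counts, 4700 were lower against oligodendrocytes and 115 with Gfap. Without rats 1 and 2, chosen after seeing the data, 1238 were higher and 1072 lower against OPCs and 105 lower with Gfap. For the Gfap split, DESeq2 gave 22 and 32, at least 6 marker UMIs 30 and 11, Gfap at 2 UMIs or more 24 and 10, thinning to 1000 UMIs 9 and 24, leaving out the top 5% of Scrublet scores (also chosen after seeing the data) 33 and 34, at least 2000 UMIs 84 lower and matched UMI totals 83 lower. When single rats were left out, 1250 to 1693 genes were higher and 1225 (without rat 5) to 1838 lower against all other nuclei, 1569 to 2956 and 1426 to 1882 against OPCs, 2839 to 4321 and 2426 to 2944 against oligodendrocytes, 2508 to 4153 and 2499 to 3034 against neurons, and 6 to 66 and 0 to 80 with Gfap. The share of gated nuclei was 3.61% at 6 marker UMIs, and 5.88% to 8.08% when single rats were left out. The share with Gfap was 21.7% at 2 UMIs, 25.2% after thinning, and 35.7% to 43.2% when single rats were left out. Of 2783 fold changes of named genes under the alternatives, 2517 kept their direction and side of the threshold, 247 no longer passed, 8 newly passed (Glul against all other nuclei and S100b with Gfap) and 11 changed sign. Of the 247, 165 were between nuclei with and without Gfap, 59 against all other nuclei, 13 against OPCs, 9 against oligodendrocytes and 1 against neurons. All 11 were Slc6a11 between nuclei with and without Gfap, which had not passed: -0.0273 by DESeq2, -0.0294 with matched UMI totals, -0.0207 at 2000 UMIs, -0.0217 without the top Scrublet scores, -0.353 at 6 marker UMIs, -0.271 with free RNA subtracted, -0.119 at 2 Gfap UMIs, -0.19 after thinning, -0.0351 without rats 1 and 2, and -0.0624 to 0.0837 when single rats were left out. The median log2 fold change over all genes tested was -0.06 against all other nuclei, 0.05 against OPCs, 0.05 against oligodendrocytes and -0.01 against neurons. It moved by over 0.1 with no filter (-0.27, 0.16, -0.13 and -0.18), with free RNA subtracted (0.17 against oligodendrocytes and -0.15 against neurons) and without rat 3 (0.15 against OPCs and 0.10 against neurons). With free RNA subtracted, 11 genes called against neurons were called in the opposite direction.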
